A study of Homo sapiens with 10 samples.

Results

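The genes described here are the ID genes and genes of the bone morphogenetic protein (BMP) pathway that carries signals to them, in human chronic myeloid leukaemia cells and a subline of them resistant to cyclophosphamide. The members are 10 listed genes: ID1, ID2, ID3, ID4, SMAD1, SMAD5, SMAD6, SMAD7, BMPR1A and BMPR2. The platform annotation assigns 16 of the 12558 tested probe sets to 9 of them, and assigns none to BMPR1A, which was therefore not measured here. The genes were chosen by name, with earlier results of these arrays in view, among them the measured difference between resistant and sensitive cells. For the members that difference is therefore given as a description, with its standard error and without p-values.

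The arrays were 5 of sensitive cells and 5 of resistant cells, each hybridised with labelled cRNA of 1 sample. The labels name the groups only as sensitive and resistant replicates of a cell line kept in tissue culture medium. They do not name the line, say how resistance was raised, or say whether the drug was present at harvest. Chronic myeloid leukaemia is driven by the fusion kinase BCR-ABL, and cyclophosphamide is an alkylating drug. Nothing says that the samples of a group were separate cultures, so the spread between them may be technical, and all values come from 1 resistant subline.

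BMPs bind pairs of membrane serine/threonine kinases, a type II receptor such as BMPR2 and a type I receptor such as BMPR1A or ACVR1. The active receptor phosphorylates SMAD1 and SMAD5, which enter the nucleus with SMAD4 and switch on target genes. ID genes are among the best known of these targets, and SMAD6 and SMAD7 are inhibitory SMADs that dampen the signal. ID proteins have a helix-loop-helix domain without a DNA-binding region. They pair with E proteins such as TCF3 and TCF12 and keep them from DNA, and in blood cells they are known for roles in progenitor growth and lineage choice.

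Signals are linear intensities per probe set. A negative control limit was set on each array as the 95th percentile of 32 control probe sets without a human target, and it lay between 319.7 and 739.8. The arrays of both groups were of like quality, with 52.7% to 59.1% of probe sets above the limit in sensitive and 51.0% to 61.3% in resistant arrays. Of the blood progenitor and leukocyte markers, 8 of 9 measured were above the limit on at least 3 arrays of a group, and KIT was below it on all 10. At or below the limit on every array were 3 of 5 stromal, 3 of 5 epithelial and 3 of 5 lymphocyte markers, among them COL1A2, COL3A1, EPCAM, KRT19, CD3D and MS4A1. The exceptions included KRT8, above the limit on all arrays, and LUM, with 1302 ± 559 (sensitive) and 237 ± 173 (resistant; SD, n = 5). Levels are compared between groups for the same probe set only, since different probe sets bind with different strength. In RNA from whole cultures, fewer cells of a type and less RNA per cell cannot be told apart.

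The design compares both lines to find transcripts tied to resistance. Among the members, ID1 and ID3 were higher in resistant cells, by 9.38-fold in the brightest ID1 probe set and by 5.74-fold in the ID3 probe set. All 9 SMAD and receptor probe sets overlapped between the groups. In the limma fit over all 12558 probe sets, 4 of the 16 member probe sets (25.0%) were called at a Benjamini-Hochberg adjusted p under 0.05. All 4 were higher in resistant arrays, 3 of them ID1 and 1 ID3. Over all probe sets 7.41% were called, that is 4.42% as higher and 2.99% as lower in resistant arrays. The groups did not overlap in the same 4 member probe sets, against 8.50% of all probe sets. The median log2 difference was 0.50 over the 16 members and 0.03 over all probe sets. Since the members were picked with this contrast in view, nothing is read from these counts. Differences are on the log2(signal + 114.8) scale, which understates the change of dim probe sets.

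The upstream sequences of the 3 ID genes that gave signals above the limit are shown because ID1 and ID3 were higher together and ID2 was not called. They are the 250 bases before the start site from RefSeq on GRCh38.p14, printed 5′ to 3′ on the gene's own strand. Capitals mark, on either strand, the boxes CCAAT and TATAAA known from core promoters and the SMAD box CAGAC.
ID1 (chr20:31605039-31605288, plus strand): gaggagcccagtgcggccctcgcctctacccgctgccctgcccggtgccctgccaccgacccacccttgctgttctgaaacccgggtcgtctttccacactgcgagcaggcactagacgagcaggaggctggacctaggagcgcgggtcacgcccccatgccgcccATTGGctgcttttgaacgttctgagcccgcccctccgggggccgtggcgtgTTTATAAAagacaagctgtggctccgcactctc
ID2 (chr2:8681806-8682055, plus strand): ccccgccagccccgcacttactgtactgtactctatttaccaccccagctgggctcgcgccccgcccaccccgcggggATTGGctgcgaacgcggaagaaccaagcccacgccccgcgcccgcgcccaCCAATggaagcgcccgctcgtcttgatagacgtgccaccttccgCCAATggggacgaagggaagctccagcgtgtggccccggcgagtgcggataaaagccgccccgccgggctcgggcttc
ID3 (chr1:23559502-23559751, minus strand): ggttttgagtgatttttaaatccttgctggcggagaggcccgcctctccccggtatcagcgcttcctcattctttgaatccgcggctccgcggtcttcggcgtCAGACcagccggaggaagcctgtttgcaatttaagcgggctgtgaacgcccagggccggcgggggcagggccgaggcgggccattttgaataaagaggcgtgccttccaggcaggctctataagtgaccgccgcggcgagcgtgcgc

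Both strands of these windows were searched for 6 motifs, of which CCAAT and TATAAA were chosen after the sequences had been seen. GGCGCC, a core of the GC-rich element that SMAD1 and SMAD5 bind, was in none of the 3 windows and in 16.4% of the 35116 windows of the same length in the table. CAGAC, the box bound by SMAD4, was in the ID3 window, 147 bases before the start, and in 38% of all windows. TTCNNNGAA, the spacing that STAT proteins bind, was in the ID3 window at 181 bases and in 6.57% of all. CACGTG, a single form of the E-box, was in none of the 3 and in 6.34% of all, and other E-box forms were not searched. CCAAT was found at 1 place in the ID1 window and at 3 in the ID2 window, and 32% of all windows held it. TATAAA was in the ID1 window, where it overlaps its own reverse complement in the run TTTATAAA, and in 10.7% of all. Matches of different motifs shared no base. A match describes the letters only, and these windows hold none of the more distant sequence.

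ID1 encodes an inhibitor of E proteins and is best known as an early BMP target. The brightest of its 3 probe sets had signals of 6873, 8032, 2794, 6760 and 10035 in sensitive replicates 1 to 5. In resistant replicates 1 to 5 they were 63741, 76724, 54744, 56964 and 54608. The lowest resistant array was far above the highest sensitive one. The means were 6899 ± 2646 and 61356 ± 9360 (SD, n = 5), a log2 difference of 3.23 (SE 0.30). By log2 difference it ranked 53 of 12558 from the top.

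The second brightest ID1 probe set had signals of 1346, 2026, 1664, 1449 and 3190 in sensitive replicates 1 to 5. Its resistant signals were 20115, 27578, 24613, 17963 and 19642. Again the groups lay far apart, with a log2 difference of 3.48 (SE 0.24), or 11.1-fold. The dimmest ID1 probe set stayed under the limit on the 5 sensitive arrays (111 ± 32.1) and exceeded it on 4 of 5 resistant ones (1270 ± 467; SD, n = 5). Its rise was at least 2.44-fold, the resistant mean of log2 signals set against the higher of the limit and the signal on each sensitive array. The 3 probe sets share a target gene and are no independent measures of it.

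ID3 encodes a close relative of ID1 with the same helix-loop-helix domain, and in lymphoid and myeloid cells it too restrains E proteins. Its single probe set had signals of 1039, 744.1, 547.5, 1244 and 2382 in sensitive replicates 1 to 5. In resistant replicates 1 to 5 they were 4596, 8008, 5186, 8722 and 7646. Every resistant array was above every sensitive one. The means were 1191 ± 717 and 6832 ± 1825 (SD, n = 5), a log2 difference of 2.52 (SE 0.34). Of the sensitive arrays, 4 of 5 were above the limit.

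ID2, which in blood cells is known for its part in lymphoid and myeloid lineage choice, was less clear. Its brighter probe set is assigned to ID2 and to the pseudogene ID2B, so its signal cannot be given to ID2 alone. It had signals of 1772, 1881, 3178, 3408 and 7597 in sensitive replicates 1 to 5 and of 7644, 8083, 8154, 5338 and 3223 in resistant ones. The groups overlapped, since sensitive replicate 5 was above resistant replicates 4 and 5 and sensitive replicate 4 was above resistant replicate 5. The log2 difference was 0.97 (SE 0.39; 95% interval 0.11 to 1.82) and was not called. Without sensitive replicate 5 it was 1.28 and was called. The dimmer probe set was above the limit on 1 sensitive and 0 resistant arrays, with a log2 difference of -0.10 (SE 0.45) that changed sign under 4 alternatives.

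ID4, known mainly from nervous tissue and mammary epithelium, exceeded the limit on none of the 10 arrays in its single probe set. Its signals ran from 4.7 to 127.7 in sensitive and from 21.9 to 554 in resistant arrays, so no level can be compared.

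**Figure D1:**
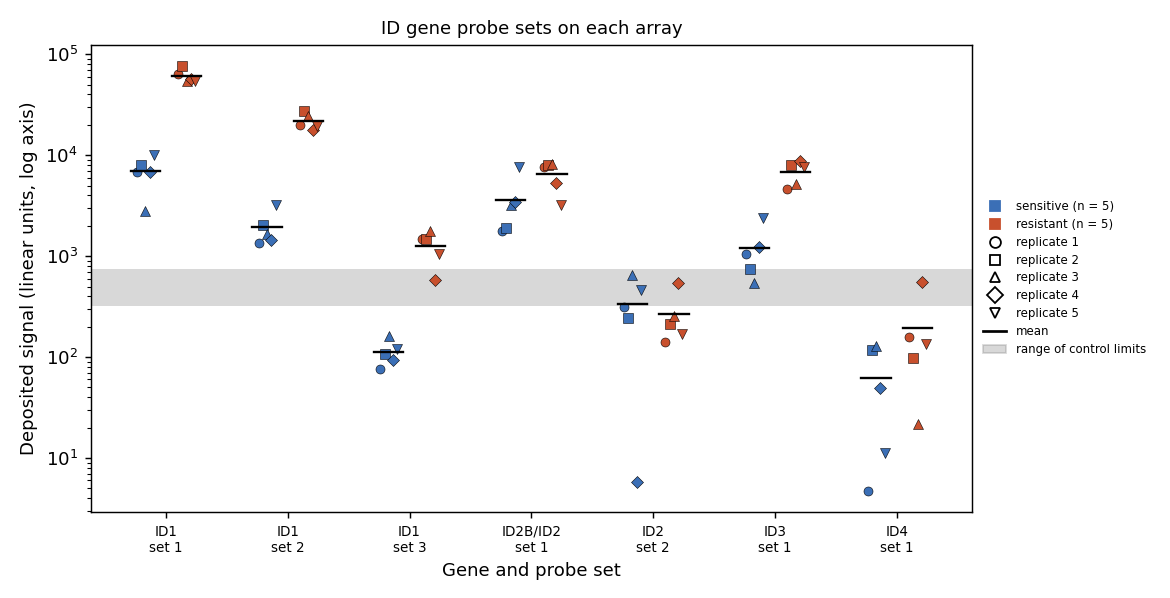
Deposited signal of the 7 ID probe sets on each array, on a log axis and numbered within a gene from the brightest (set 1), with sensitive arrays in blue, resistant arrays in orange, a marker shape for each replicate, bars at the group mean (n = 5) and a grey band from 319.7 to 739.8 for the range of control limits. ID1 and ID3 probe sets separate the groups, the ID2B/ID2 probe set overlaps at sensitive replicates 4 and 5 and resistant replicates 4 and 5, and ID4 stays at or below each array's limit.

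Within the sensitive group the 2 brighter ID1 probe sets, the ID2B/ID2 probe set and the ID3 probe set had their highest signal in replicate 5. Their lowest signal was in replicate 3 for the brightest ID1 probe set and ID3, and in replicate 1 for the other ID1 probe set and ID2B/ID2. Whether they vary together was not tested, and the ID1 probe sets share a gene. The coefficient of variation in sensitive arrays was 38.3% and 38.7% for the brighter ID1 probe sets, 66.5% for ID2B/ID2 and 60.2% for ID3. In resistant arrays it was 15.3%, 18.1%, 33.3% and 26.7% in the same order. The dimmest ID1 probe set, within background on the sensitive arrays, went the other way with 28.8% in sensitive and 36.7% in resistant arrays. Sensitive replicate 5 also had the highest summed signal of the 10 granulocytic markers, 503405, against 202225 to 352009 on the other sensitive arrays. Most of that sum came from PRG2 (231422) and CLC (107510). These alone among the markers peaked in sensitive replicate 5. The PRTN3 signal there, 40188, was close to its highest, 40263 in replicate 2. PRG2, CLC, EPX and MS4A3 were each higher in sensitive replicates 4 and 5 than in replicates 1 to 3. The other granulocytic markers were not. For EPX the signals were 40734 and 38860 against 3585 to 4886. The erythroid markers GATA1 and KLF1 showed the same split, and the other measured erythroid markers did not. Whether the makeup of these arrays bears on the ID signals was not tested.

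Markers of blood lineages differed between the groups beside the ID genes. Of the 10 granulocytic markers 9 were called lower in resistant arrays, among them the granule protein genes PRG2 and PRTN3. The summed signal of all 10 was 1580 to 2790 there. The exception was MPO, with a log2 difference of 0.25 (SE 0.41), above the limit on 1 sensitive and 2 resistant arrays. Of all 8226 genes 3.46% were called lower. The marker lists were chosen with earlier results of these arrays known, so their calls are a description only. Of 7 measured erythroid markers 1 was called, the erythroid transcription factor gene KLF1, which was higher. Their summed signal was 26490 to 46674 in sensitive and 44503 to 65077 in resistant arrays. Most of that sum came from TFRC, 29979 ± 10016 (sensitive) and 35546 ± 6376 (resistant; SD, n = 5), which was not called. KLF1 was 1222 ± 758 in sensitive and 8548 ± 1224 in resistant arrays, so its mean rose more than that of TFRC. The part of these lineage differences in the ID signals was not tested.

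Among the receptor-activated SMADs, which carry the BMP signal into the nucleus, SMAD1 was above the limit on all 10 arrays in both of its probe sets. Its dimmer probe set had signals of 2889, 3639, 4195, 4880 and 3437 in sensitive replicates 1 to 5 and of 2989, 5598, 7216, 5819 and 5850 in resistant ones. Resistant replicates 2 to 5 were above all sensitive arrays, and replicate 1 was among the lowest of them. The log2 difference was 0.48 (SE 0.25; 95% interval -0.05 to 1.02). The brighter SMAD1 probe set was 4955 ± 588 and 5768 ± 1497 (SD, n = 5), with a log2 difference of 0.18 (95% interval -0.29 to 0.65), and resistant replicate 1 was again the lowest resistant array. Neither was called. All intervals given for members are unadjusted.

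SMAD5, the partner of SMAD1 with the same role, had 3 probe sets, 2 with a negative and 1 with a positive log2 difference. The brightest had signals of 1178, 867.4, 819, 1649 and 658.6 in sensitive replicates 1 to 5. In resistant replicates 1 to 5 they were 335.7, 738.2, 230.4, 500.4 and 1315. Resistant replicates 1, 3 and 4 lay below all sensitive arrays and replicates 2 and 5 within their range, and the log2 difference was -0.76 (SE 0.37; 95% interval -1.56 to 0.05). The other SMAD5 probe sets had differences of -0.19 and 0.08 (SE 0.22 and 0.26), and the latter changed sign under 4 alternatives. None of the 3 was called.

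The inhibitory SMADs, which BMP and TGF-beta signals induce and which block receptors in turn, gave no called difference either. SMAD6 in its brighter probe set was 407 ± 289.8 (sensitive) and 677 ± 318 (resistant; SD, n = 5), above the limit on 2 and 4 arrays. Its log2 difference was 0.64 (SE 0.45; 95% interval -0.35 to 1.62), and its dimmer probe set never exceeded the limit. SMAD7 had signals of 646.2, 640.1, 1060, 845.5 and 857.9 in sensitive replicates 1 to 5 and of 541, 339.1, 855.1, 944.4 and 115.1 in resistant ones. All 5 sensitive and 3 of 5 resistant arrays were above the limit, and the log2 difference was -0.63 (SE 0.37; 95% interval -1.45 to 0.18).

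BMPR2, a type II receptor that binds BMPs, was near or below the limit. Its probe set had signals of 28, 466.8, 405, 323.9 and 449.4 in sensitive replicates 1 to 5 and of 99.4, 236.1, 25, 77 and 109.3 in resistant ones. Only sensitive replicate 2 was above its array's limit, so the log2 difference of -0.91 (SE 0.39; 95% interval -1.76 to -0.07) compares signals mostly within background. It was not called, but without sensitive replicate 1, the lowest sensitive array, it was -1.29 and was called. BMPR1A was not analysed here.

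**Figure D2:**
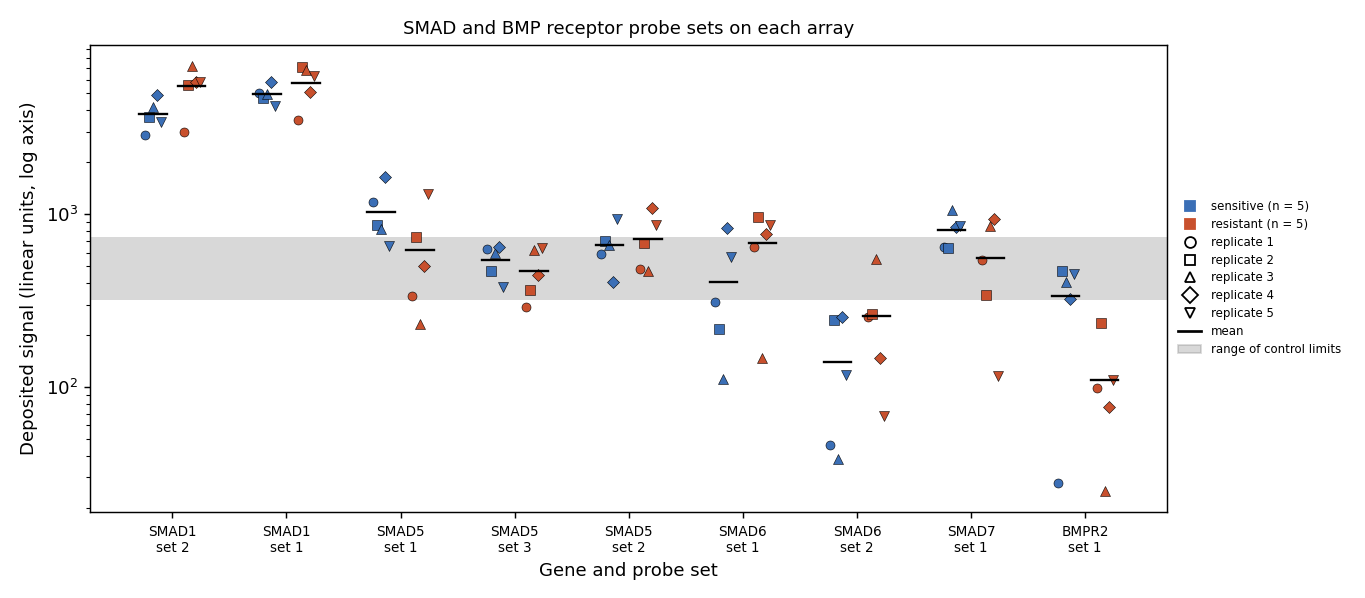
Deposited signal of the 9 SMAD and BMP receptor probe sets on each array, on a log axis, drawn as for the ID genes with the grey band from 319.7 to 739.8 marking the range of control limits and bars at the group mean (n = 5). The groups overlap in all 9, SMAD1 lies above the band on every array, and BMPR2 lies mostly within or below it.

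**Figure D3:**
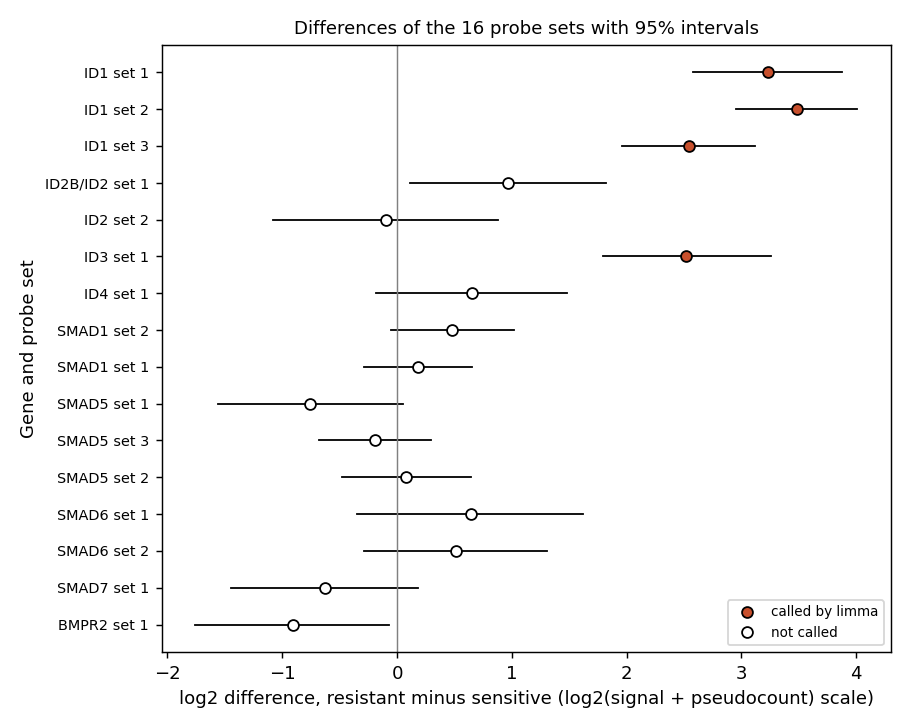
Log2 difference, resistant minus sensitive, of the 16 member probe sets, numbered as above, on the log2(signal + pseudocount) scale, with unadjusted 95% intervals from the limma fit (n = 5 arrays per group) and filled points for those called. The 4 filled points, 3 of ID1 and 1 of ID3, lie between 2.52 and 3.48, and the 12 open ones between -0.91 and 0.97.

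The rest of the pathway was followed through 8 lists with 115 genes that are no members, of which 90 had a probe set of their own. Each gene was represented by its brightest probe set, by mean log2 signal. For GDF11 and PPM1A a dimmer probe set was called and the brightest was not, so both count as not called. Of the 90, 12 were called higher and 2 lower in resistant arrays (15.6%), where 8.40% of all 8226 genes were called, 4.94% higher and 3.46% lower. The lists were chosen with earlier results of these arrays known, so this share and the calls below are a description only. Signals above the limit on at least 3 arrays of a group were found for 51, and 23 were at or below it on all 10 arrays. Adjusted p-values below are from limma with Benjamini-Hochberg adjustment over all 12558 probe sets.

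Of 12 measured BMP ligand genes 0 were called by limma and 9 were at or below the limit on every array. The exception above the limit on at least 3 arrays of a group was BMP6, a ligand known for its role in iron regulation. Its means were 726 ± 463 (sensitive) and 1170 ± 223 (resistant; SD, n = 5), a log2 difference of 0.76 (SE 0.33, adjusted p = 0.248), and its other probe set had 1.66 (SE 0.53, adjusted p = 0.0933). Of 7 antagonist genes, which block ligands or receptors, 0 were called. BAMBI, a receptor without a kinase domain that acts as a decoy, was 699 ± 224 and 849 ± 39.8 (log2 difference 0.29, adjusted p = 0.541). The largest antagonist difference was that of FST, 1493 ± 798 (sensitive) and 484 ± 322 (resistant; SD, n = 5). Its log2 difference was -1.42 (SE 0.45, adjusted p = 0.0918), and 5 sensitive and 2 resistant arrays were above the limit.

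Of 9 further receptor and co-receptor genes 4 were called higher and 0 lower. ENG encodes endoglin, a co-receptor for BMP and TGF-beta ligands. It had signals of 583.7, 686.9, 637.5, 969.7 and 983.4 in sensitive replicates 1 to 5 and of 5048, 2818, 2160, 2409 and 2372 in resistant ones. The groups did not overlap, and the log2 difference was 1.75 (SE 0.25, adjusted p = 0.000856). ACVR1, a type I BMP receptor, rose from 461 ± 318 to 1472 ± 524 (SD, n = 5), a log2 difference of 1.60 (SE 0.37, adjusted p = 0.0208). Its call was lost without sensitive replicate 2 or without resistant replicate 3 (adjusted p = 0.0586 and 0.0521).

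The remaining 2 receptor calls were of dim genes. AMHR2, the type II receptor of anti-Müllerian hormone, exceeded the limit on 0 sensitive and 3 resistant arrays, at least 1.22-fold higher (adjusted p = 0.0107). TGFBR3, a co-receptor known as betaglycan, was above the limit on 1 resistant array only (118 ± 129 and 476 ± 205, adjusted p = 0.0242). The call of TGFBR3 was lost without any 1 of sensitive replicates 1, 4 and 5 or resistant replicates 4 and 5, with adjusted p-values of up to 0.0669. The type I receptor gene ACVRL1 was 1062 ± 429 and 999 ± 400.3 (SD, n = 5) and was not called.

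Of 17 genes of the TGF-beta and activin arm, which signals through SMAD2 and SMAD3, 1 was called lower and 0 higher. It was INHBA, a subunit of activin, in a probe set that exceeded the limit on none of the 10 arrays (log2 difference -1.32, adjusted p = 0.00317). The other INHBA probe set had a log2 difference of 0.31. TGFB1 was 2897 ± 546 and 3767 ± 729 (SD, n = 5) and was not called (adjusted p = 0.376).

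Of 23 other SMADs and SMAD regulators 4 were called higher and 0 lower. CTDSP2, a phosphatase known to remove phosphate from SMAD proteins, rose from 12195 ± 1593 to 20209 ± 1090 (SD, n = 5), a log2 difference of 0.73 (SE 0.16, adjusted p = 0.0145). Scaled to a common median it was 0.60 and was not called (adjusted p = 0.0782). ZEB2, a SMAD-binding repressor, rose by 0.95 (SE 0.21, adjusted p = 0.0162). NEDD4L, a ubiquitin ligase that acts on activated SMADs, rose by 1.38 (adjusted p = 0.0327), a call that 8 of 18 alternatives ended (highest adjusted p = 0.0836), among them the omission of sensitive replicate 3 or 5 or of resistant replicate 2, 3, 4 or 5. ZNF423, a DNA-binding partner of SMADs in BMP responses, was above the limit on 1 resistant array only (adjusted p = 0.0276), a call lost without sensitive replicate 1, 3, 4 or 5 or resistant replicate 2 or 4 (highest adjusted p = 0.0732). SMAD4, the shared partner of all receptor-activated SMADs, was 6227 ± 1326 and 8710 ± 2039 (log2 difference 0.47, adjusted p = 0.264).

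The E proteins that ID proteins bind did not yield a call. TCF3 was 5935 ± 637 in sensitive and 5430 ± 2268 in resistant arrays, TCF12 was 5528 ± 1778 and 6526 ± 1300 (SD, n = 5), and TCF4 was at or below the limit on every array. Of the 9 genes in the list of E proteins and their partners 2 were called higher and 1 lower. TAL1, a blood transcription factor that works as a dimer with E proteins, had signals of 2208, 2102, 1443, 4025 and 3224 in sensitive replicates 1 to 5. Its resistant signals were 11286, 8652, 14778, 8621 and 8084, all above the sensitive ones (log2 difference 1.98, SE 0.28, adjusted p = 0.000741).

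LMO2, a bridging protein in TAL1 complexes, went the other way. Its sensitive signals were 7919, 9693, 4223, 6848 and 3953 in replicates 1 to 5, and its resistant signals were 2011, 1090, 1843, 1611 and 936.5. The groups did not overlap, with a log2 difference of -2.01 (SE 0.30, adjusted p = 0.00111). HES1, a bHLH repressor known as a Notch target, rose from 2433 ± 476 to 6747 ± 1832 (SD, n = 5), a log2 difference of 1.41 (SE 0.23, adjusted p = 0.00199).

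Of 9 other genes known to be induced by BMPs 1 was called. It was MSX1, a homeobox gene, which was called higher in all 3 of its probe sets. The brightest rose from 1225 ± 509 to 2799 ± 530.3 (SD, n = 5; log2 difference 1.17, adjusted p = 0.0113), and the others rose by 1.81 and 1.31. GATA2, a progenitor transcription factor, was 18112 ± 8664 and 22455 ± 5532 (adjusted p = 0.58), and JUNB was 2326 ± 362 and 2527 ± 408 (adjusted p = 0.834).

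Of 4 CDK inhibitor genes 1 was called. CDKN1C, which encodes p57 and slows the G1 phase, was higher in all 3 of its probe sets. In the brightest its sensitive signals were 458.8, 64, 461.9, 242.5 and 916.1 in replicates 1 to 5, and its resistant signals were 2245, 2662, 1281, 3181 and 1887. The groups did not overlap (log2 difference 2.29, SE 0.41, adjusted p = 0.00434). CDKN2A, which ID1 is known to repress, was 4532 ± 692 and 3478 ± 459.6 (SD, n = 5; log2 difference -0.37, adjusted p = 0.304). CDKN1A exceeded the limit on no array.

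**Figure D4:**
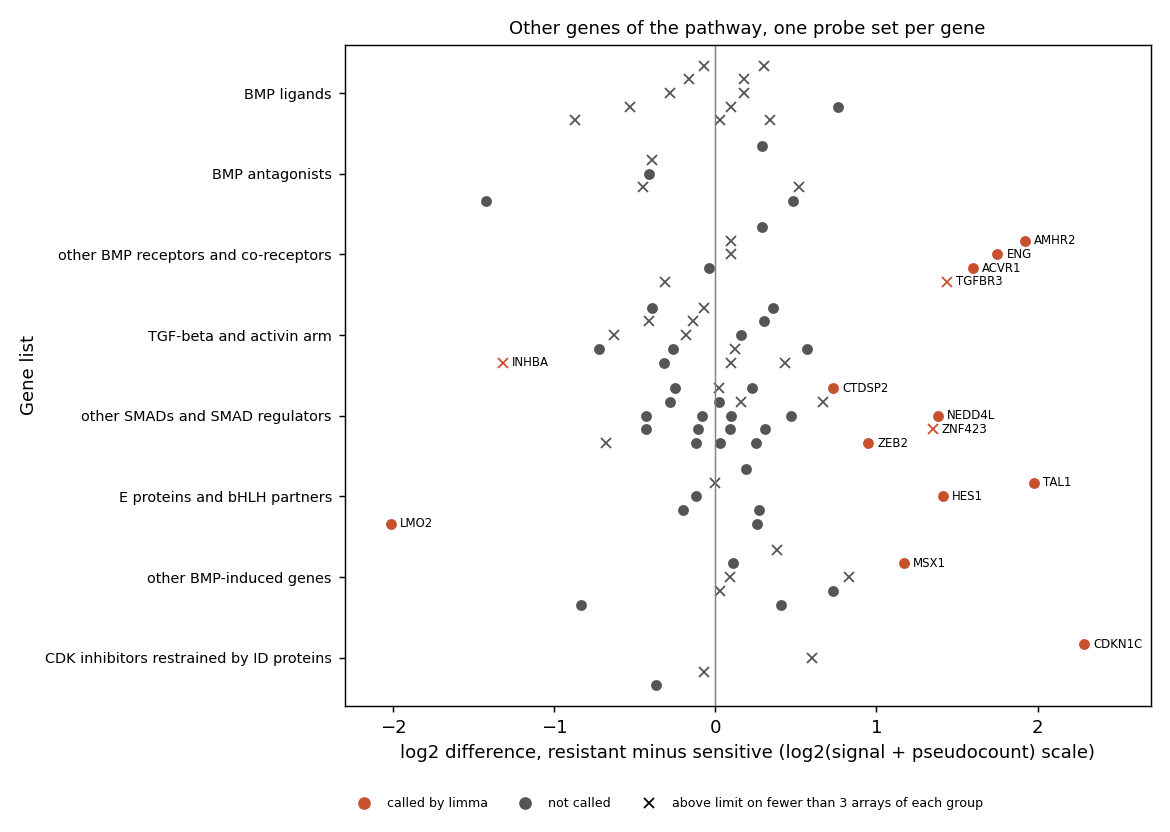
Log2 difference, resistant minus sensitive, of the 90 measured pathway genes that are no members, by list, on the log2(signal + pseudocount) scale and with vertical offsets for legibility only. Called genes are orange and named, and crosses mark genes above the control limit on fewer than 3 arrays of each group. The 14 called genes run from LMO2 at -2.01 to CDKN1C at 2.29, and no BMP ligand or antagonist is among them.

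The genes with the pattern most like that of ID1 and ID3 over the 10 arrays were found among probe sets above the limit on at least 3 arrays of a group. For ID1 they were SYPL1, S100A4 and PICALM, with Pearson's r of log2 values of 0.988, 0.988 and 0.981 over 10 arrays and among 6519 candidates. For ID3 they were DPYD, S100A4 and RHOC, with r of 0.979, 0.974 and 0.973 among 6521. S100A4, which encodes a calcium-binding protein, had means of 548 ± 332 (sensitive) and 5935 ± 816 (resistant; SD, n = 5). These coefficients rest mainly on the gap between the groups, which all 10 arrays share.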

How the data were processed

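Gene expression was measured on 1-colour oligonucleotide arrays, 5 per group, with groups and replicate numbers from the sample titles. The deposited values are signal intensities on a linear scale, and MAS5 is named in the submitters' processing notes. For its version and settings: not given in the sources used here. On all arrays the 2% trimmed mean was 2501.33 to 2501.51, so the values were used as deposited. Of 12625 probe sets 67 controls were left out. Probe sets were named from the platform annotation, with symbols updated to GRCh38.p14: 10943 had 1 symbol, 545 several and 1070 none.

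log2(signal + 114.8), with the 20th percentile of all signals as pseudocount, was fitted by limma 3.58.1 (R 4.3.3; lmFit, then eBayes) without covariates, and the fit was checked on simulated data. Called means a Benjamini-Hochberg adjusted p under 0.05 over 12558 probe sets. The negative control limit, the 95th percentile of 32 control probe sets, decides where only a bound is given. Named are all member probe sets, the called genes of each list (at most 4, or its brightest gene if none) and the 3 genes most like each called member, and further genes were chosen after their values were seen. The members and lists were chosen with earlier results of these data known. Same-numbered arrays were not paired in the fit, since their deviations correlated at 0.009 to 0.123. A batch shared by several replicate numbers of both groups was not tested for. Alternatives changed the pseudocount, scaling, filter, variance model, block, the probe set per gene and the arrays used. The number of arrays limits the precision.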

Additional observations from a re-analysis of the deposited data

Results flagged for a closer look

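In groups of 5 arrays, 7 flags arose in 64 groups of members and named pathway genes because the extreme array lay far from the others (Dixon's ratio above 0.71). Chance flags about 1 in 20 groups where values are normal and groups are independent. Here the signals were linear and the groups shared arrays, so that rate may not hold. Sensitive replicate 5 had a signal of 7597.4 in the ID2B/ID2 probe set, against 1771.7 to 3408 on the other sensitive arrays. Resistant replicate 4 had 546.1 in the dim ID2 probe set, against 139.7 to 257.1, and 554 in ID4, against 21.9 to 159.2, both at or below its limit. Sensitive replicate 4 had 2110.9 for MSX1, against 871.1 to 1157.3. Resistant replicate 1 had 5047.7 for ENG, against 2160.2 to 2818.5, and resistant replicate 3 had 2394.2 for ACVR1, against 1093.6 to 1348.3. Sensitive replicate 2 had 182.6 for ZNF423, against 11 to 37, all below the limit.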

How the results depend on the processing

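The 4 member calls were kept in number under every alternative run, at 4 or 5 calls, and the log2 difference of the brightest ID1 probe set stayed between 2.94 and 3.39 and that of ID3 between 2.25 and 2.79. The alternatives refit the arrays with which the members had been picked, so the kept calls are no further support. The pathway calls numbered 11 to 15 and the calls over all probe sets 691 to 1159. The difference of the dimmer ID2 probe set, -0.52 to 0.15 with 1 array left out, turned positive, to 0.04 with the 5th percentile as pseudocount and to 0.15, 0.05 and 0.02 without sensitive replicate 3, sensitive replicate 5 or resistant replicate 1. That of the second brightest SMAD5 probe set, -0.07 to 0.20 with 1 array left out, turned negative, to -0.04 with arrays scaled to a common median, -0.01 after quantile normalization, and -0.05 and -0.07 without sensitive replicate 4 or resistant replicate 4. The cause was not tested. Scaling to a common median moved the median difference of all probe sets from 0.03 to -0.07. With the replicate number as a block, 794 probe sets, 4 members and 11 pathway genes were called, and TGFBR3, NEDD4L and CTDSP2 were lost (adjusted p = 0.08, 0.0762 and 0.0503, limma). In a check of the pairing, 3 of 5 sensitive arrays correlated best with their own number. Sensitive replicate 2 correlated best with resistant replicate 1, and sensitive replicate 4 with resistant replicate 5. Sensitive replicates 1 to 3 thus matched resistant replicates 1 or 3 best, and sensitive replicates 4 and 5 matched resistant replicate 5. Whether a batch lies behind this was not tested. The INHBA call was lost for the mean of its probe sets (log2 difference -0.51, adjusted p = 0.281). Probe sets below the control limit carry no usable level.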
